A study of Mus musculus with 16 samples.

Results

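Kidneys of aged mice given Palmijihwang-tang (PM), a herbal formula of East Asian medicine, were compared with kidneys of untreated aged mice. The comparison was set by the group labels alone and holds 8 of the 16 libraries of the series, 3 of the group called Old+PM here and 5 of the group Old. All mice were male wild-type (WT) C57BL/6. The Old and Old+PM mice had 5 months of acclimatization, and the latter received oral PM (100 mg/kg/day, 5 days per week) between the ages of 19 and 24 months. One passage of the labels names the formula of the PM group as YM (Yukmijihwang-tang), and the group name and the remaining design text were followed here. The sources used here do not give the age at which the untreated Old mice were sampled. The other libraries are 5 of Young mice (3 months of age) and 3 of Old+YM mice, given YM on the same schedule, and they entered the fit and stand beside the results as reference levels. Whether each library came from its own mouse is not stated, so the p-values measure only the spread between these libraries, which may be partly technical.

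PM is the formula of YM with aconite and cinnamon added, and both formulas are used in traditional practice for complaints of ageing and of the urinary tract. The kidney filters blood in the glomerulus and recovers salt, glucose, amino acids and phosphate along the tubule, work that draws heavily on mitochondrial respiration. It also secretes renin, the enzyme that starts the angiotensin cascade of blood pressure and salt control, and in the male mouse it carries a large set of androgen-dependent transcripts.

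RNA was counted per gene with QuantSeq, a method that sequences only the 3' end of polyadenylated transcripts. Totals were 9017102 to 10565860 counts in the Old libraries and 9415602 to 10261971 in the Old+PM libraries. The labelled tissue was checked against its markers, and 43 of 43 listed proximal tubule genes and 15 of 15 podocyte genes passed the filter on low counts. Of markers of other tissues and cells, 2 of 12 adrenal, 1 of 9 skeletal muscle, 1 of 7 pancreas and 2 of 10 neutrophil genes did. So did 11 of 12 liver, 13 of 14 adipocyte, 9 of 11 urothelium and 8 of 8 blood cell genes, so the check does not show other tissues to be absent. Levels are given as CPM (a gene's counts relative to the TMM-scaled size of its library), as mean ± SD, and differences as log2 fold changes of Old+PM minus Old with their standard error (SE) from edgeR. Old 5 and Old 4 stood apart from the other Old libraries, Old 5 in immune cell, injury and proximal tubule transcripts and Old 4 in clock transcripts. Several results that rest on them are given with and without them, and for others only the level in these libraries is given.

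No gene passed the test between Old+PM and Old kidneys. Of 14665 genes tested with edgeR's quasi-likelihood test, 0 (0%) passed an adjusted p of 0.05, and the smallest adjusted p was 0.790. The unadjusted p was under 0.05 for 904 genes (6.16%), where 733.25 are expected by chance, with 388 (2.65%) higher and 516 (3.52%) lower in Old+PM. DESeq2 also called 0 genes, with 990 at an unadjusted p under 0.05, and limma-voom called 0, with 949. The 2 groups did not overlap for 589 genes (4.02%), 281 (1.92%) higher and 308 (2.10%) lower in Old+PM. By chance 3.57% are expected not to overlap with 5 and 3 libraries, so lack of overlap in a single gene carries little weight.

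The fitted changes were small for most genes. Their median was -0.02, the middle of the distribution ran from -0.21 to 0.14 (quartiles), and 5% of genes lay below -0.66 and 5% above 0.46. Of the 10315 genes with a mean of at least 5 CPM, 9487 (92%) had a 95% confidence interval that lay within a 2-fold change in either direction. For these genes a 2-fold change lay outside the interval, and the median SE was 0.18. Smaller changes were not detectable for many of them at this number of libraries. Over all tested genes, 10272 of 14665 had such an interval.

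The 8 genes of smallest p that were higher in Old+PM had no overlap between the groups. They were chosen by p in this same comparison, which favours such separation, so it adds no support of its own. Slc25a1, the mitochondrial citrate carrier (chromosome 16, 17925223 to 17928219, minus strand), had 76.2, 77.5, 64.9, 72.7 and 67.0 CPM in Old 1 to 5 and 90.4, 99.5 and 102 CPM in Old+PM 1 to 3. All 3 Old+PM libraries lay above all 5 Old libraries. The log2 change was 0.44 (SE 0.10, unadjusted p = 0.00029675, edgeR adjusted p = 0.790). Ihh, the secreted signal Indian hedgehog (chromosome 1, 74945315 to 74951672, minus strand), had 8.05, 8.69, 6.77, 8.56 and 8.08 CPM in Old and 17.5, 11.5 and 15.5 CPM in Old+PM. Its groups did not overlap either, with a log2 change of 0.88 (SE 0.22). Agmat, annotated as the enzyme agmatinase (chromosome 4, 141746672 to 141759263, plus strand), had 4.48 to 5.31 CPM in Old and 8.38, 9.99 and 8.17 CPM in Old+PM (log2 0.83, SE 0.23). In Old+YM it had 5.00 ± 0.542 CPM (n = 3), and the difference between the formulas did not pass (edgeR adjusted p = 0.261). Mfsd2a, a transporter of lysophospholipids (chromosome 4, 122946850 to 122961188, minus strand), had 2.40 to 4.29 CPM in Old and 11.4, 6.80 and 7.03 CPM in Old+PM (log2 1.22, SE 0.34). Young kidneys (n = 5) had 80.7 ± 5.98 CPM of Slc25a1, 9.56 ± 2.45 CPM of Ihh, 3.83 ± 0.994 CPM of Agmat and 25.3 ± 11.98 CPM of Mfsd2a.

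The remaining higher genes of this set likewise had no overlap between the groups. Atp5g1, a membrane ring subunit of ATP synthase, had 87.3 to 114 CPM in Old and 132 to 148 CPM in Old+PM (log2 0.44, SE 0.12). Paralogs encode the same mature protein and pseudogenes exist, so its counts are uncertain where reads could be split. Tmco3, which encodes a predicted membrane protein, had 22.8 ± 1.98 CPM in Old, 32.2 ± 2.44 CPM in Old+PM and 52.7 ± 9.29 CPM in Young. Ceacam2, a cell adhesion molecule, had 4.27 to 7.45 CPM in Old and 12.01 to 14.3 CPM in Old+PM (log2 1.18, SE 0.32). The 3' end of Ceacam2 overlaps 4732471J01Rik on the other strand, and the sources used here do not say whether counting used the strand. Each of these genes had an edgeR adjusted p of 0.790.

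The 8 lower genes of smallest p were likewise without overlap between the groups, which the choice by p again favours. Swap70, a signalling protein that acts on Rac and the actin skeleton (chromosome 7, 110221711 to 110283506, plus strand), had 11.4, 8.31, 11.6, 8.95 and 15.7 CPM in Old and 5.86, 5.48 and 5.89 CPM in Old+PM. The Old+PM libraries lay close together below every Old library, with a log2 change of -0.96 (SE 0.22, unadjusted p = 0.000336, edgeR adjusted p = 0.790). Tulp4, of the tubby-like protein family (chromosome 17, 6106437 to 6251128, plus strand), had 17.1, 17.0, 21.0, 26.6 and 14.0 CPM in Old and 10.1, 9.63 and 10.3 CPM in Old+PM (log2 -0.93, SE 0.22). Tnfaip8, a regulator of cell death induced by TNF, had 296 to 478 CPM in Old and 247 to 264 CPM in Old+PM (log2 -0.59, SE 0.15). In Old+YM, Tulp4 had 10.9 ± 1.71 CPM and Tnfaip8 241 ± 40.9 CPM (n = 3 each). For these 2 genes the log2 difference of Old+PM minus Old+YM was -0.13 and 0.07. In Young, Swap70 had 7.49 ± 1.43 CPM, Tulp4 17.1 ± 4.04 CPM and Tnfaip8 415 ± 43.1 CPM.

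Chromatin remodellers Hltf and Atrx were also lower in Old+PM without overlap. Hltf had 15.7 ± 1.98 CPM in Old (n = 5) and 10.1 ± 1.55 CPM in Old+PM (n = 3), a log2 change of -0.63 (SE 0.16). Atrx had 154 to 186 CPM in Old and 130 to 136 CPM in Old+PM (log2 -0.36, SE 0.09). Armc8, a subunit of the CTLH ubiquitin ligase complex, had 24.6 ± 3.87 CPM in Old and 15.1 ± 2.84 CPM in Old+PM (log2 -0.70, SE 0.19). In Old+YM, Armc8 had 33.7 ± 6.81 CPM, and its log2 difference of Old+PM minus Old+YM was -1.16 (edgeR adjusted p = 0.108). Isoc1 (log2 -0.54) and Pawr, which encodes the apoptosis regulator PAR-4 (log2 -0.47), complete the set, and none passed (edgeR adjusted p = 0.790 for each). Isoc1 had mean levels of 71.6 CPM in Old and 49.2 CPM in Old+PM, and Pawr 58.8 and 42.4 CPM. Young levels were 21.6 ± 1.57 CPM for Hltf, 145 ± 1.32 CPM for Atrx and 23.8 ± 5.25 CPM for Armc8. For Isoc1 and Pawr they were 81.2 ± 13.9 CPM and 58.0 ± 6.65 CPM.

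**Figure D1:**
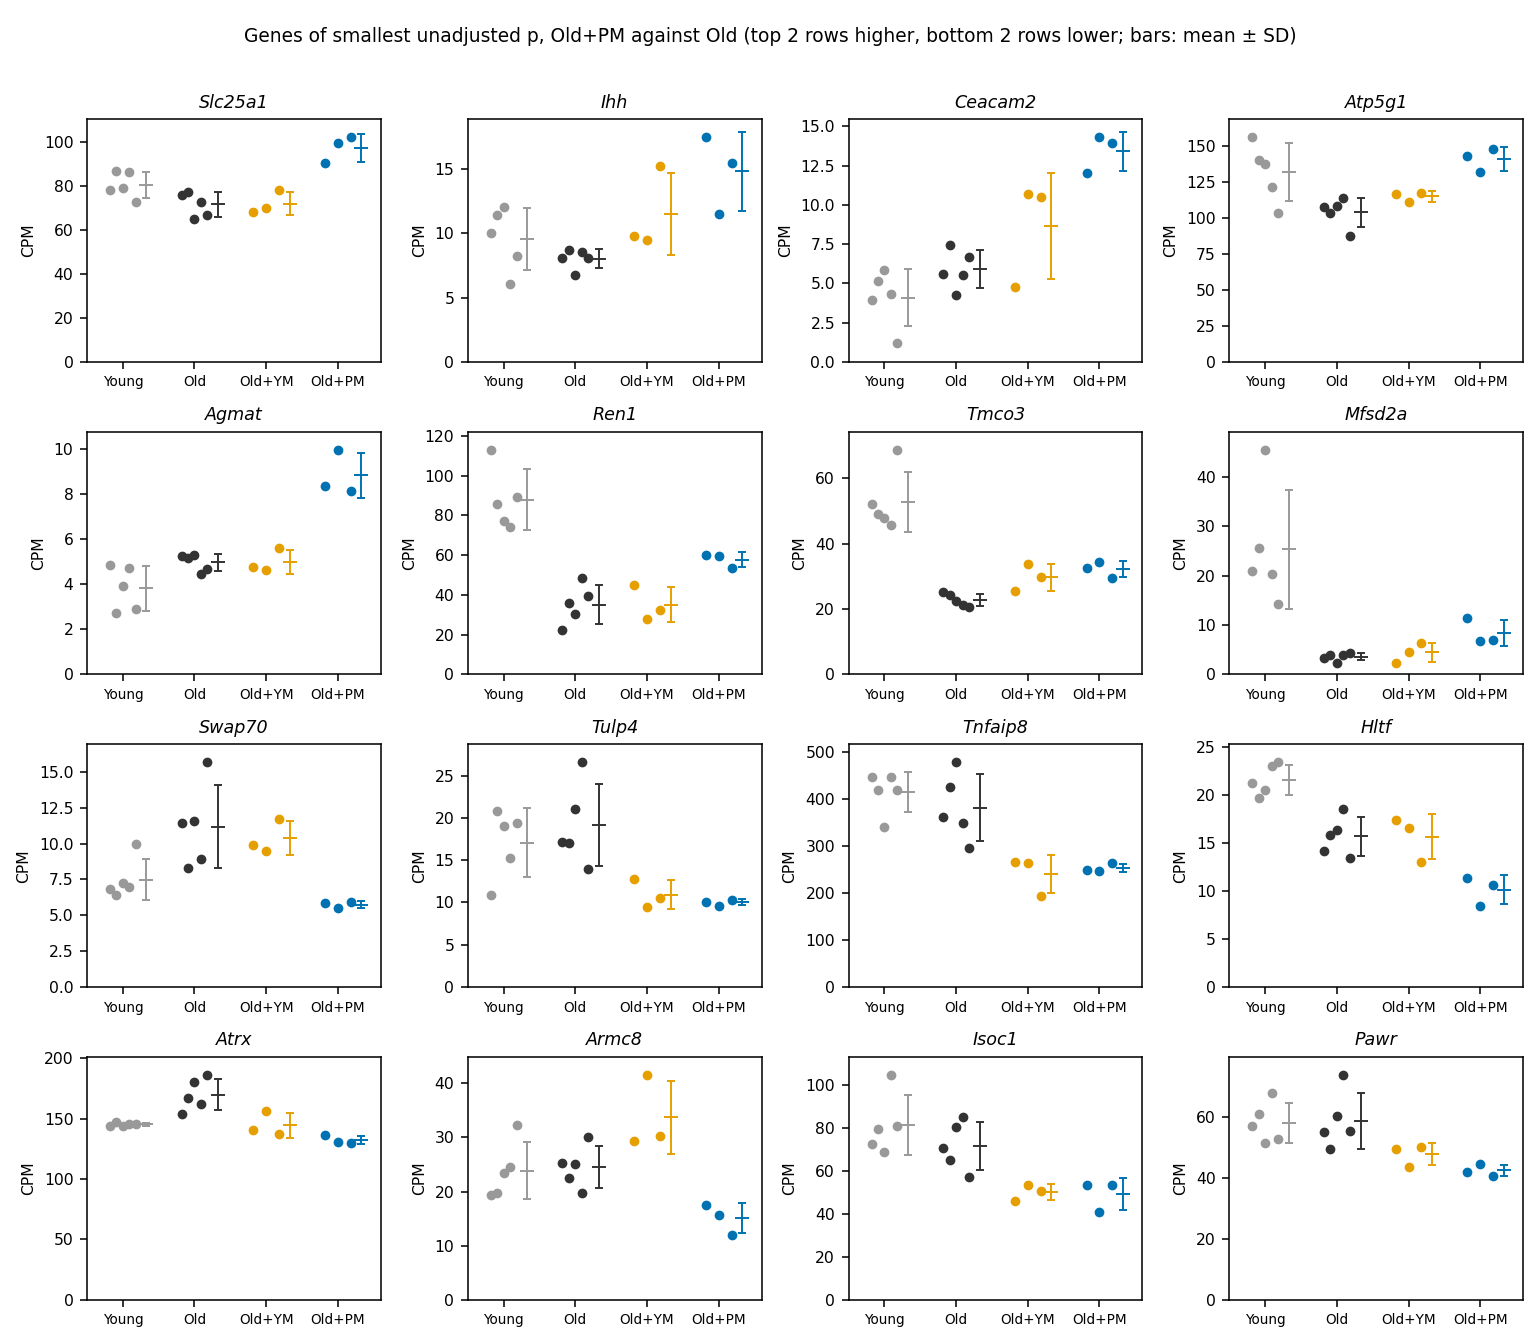
Level in CPM of the 8 higher and 8 lower genes of smallest unadjusted p, one point per library in the Young, Old, Old+YM and Old+PM groups, with bars for mean ± SD. In each panel the 3 Old+PM points lie outside the range of the 5 Old points, for example 53.5 to 60.0 CPM against 22.2 to 48.3 CPM for Ren1. The genes were chosen by p in this comparison, which favours such separation.

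The base composition of these genes differed by direction. Among the 100 higher genes of smallest p, with a mean of at least 5 CPM, the median GC content of the last 500 bases of the transcript was 48.8%, among the 100 lower ones 37.2%, and over all 10098 such genes with a known sequence 43.8%. The slope of expression on GC content, in log2 CPM per 10 points of GC, was 0.0147 to 0.123 in Old+PM and -0.101 to 0.0705 in Old libraries (two-sided exact permutation p = 0.0893, adjusted p = 0.208 over 7 library measures). Across these 10098 genes, which are not independent, Spearman's rho between GC content and the log2 change was 0.36. With this slope as a covariate, an alternative chosen after seeing the data, 0 genes passed in edgeR as well, with 1370 at an unadjusted p under 0.05. All 16 genes in the plot of the genes of smallest p kept their direction in that fit. The log2 change of Armc8 went from -0.70 to -0.33 (unadjusted p = 0.0517), and that of Atp5g1 from 0.44 to 0.29.

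Renin and its substrate were both higher in Old+PM without passing the test. Ren1, the renin gene (chromosome 1, 133350510 to 133360325, plus strand), had 22.2, 35.7, 30.2, 48.3 and 39.4 CPM in Old 1 to 5 and 60.0, 59.7 and 53.5 CPM in Old+PM 1 to 3. Every Old+PM library lay above every Old library. The log2 change was 0.72 (SE 0.20, 95% interval 0.30 to 1.13, unadjusted p = 0.00173, edgeR adjusted p = 0.790). Young kidneys had 88.0 ± 15.3 CPM of Ren1 (n = 5) and Old+YM kidneys 35.1 ± 8.80 CPM (n = 3), beside 35.2 ± 9.79 CPM in Old and 57.8 ± 3.67 CPM in Old+PM. The Old+PM mean thus lay between the Old and Young means, and the difference between the formulas did not pass (log2 0.72, edgeR adjusted p = 0.261).

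Agt, which encodes angiotensinogen, the substrate of renin, had 18.6, 24.8, 17.8, 17.1 and 29.0 CPM in Old and 34.7, 33.9 and 30.5 CPM in Old+PM. Its groups did not overlap, with a log2 change of 0.62 (SE 0.18, unadjusted p = 0.00281, edgeR adjusted p = 0.790). In Old+YM, Agt had 30.9 ± 7.9997 CPM (n = 3), and in Young 18.3 ± 2.09 CPM (n = 5). Genes downstream gave smaller values. Ace, the angiotensin-converting enzyme, had a log2 change of 0.39 (SE 0.23). Agtr1a, the main angiotensin II receptor of the kidney, had 0.24 (SE 0.14), and the prorenin receptor gene Atp6ap2 had -0.28 (SE 0.14). Akr1b7, an aldo-keto reductase also found in renin-producing cells of the kidney, was at 1.61 ± 0.565 CPM in Old and 3.02 ± 0.562 CPM in Old+PM (log2 0.90, unadjusted p = 0.0283), with overlap between the groups.

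Genes responsive to corticoids had values at or below 0, and none passed. Zbtb16, a transcription factor gene induced by glucocorticoids, had 41.0, 25.9, 24.9, 28.9 and 23.9 CPM in Old and 11.6, 20.3 and 11.4 CPM in Old+PM. All Old+PM libraries were below the Old libraries (log2 -0.998, SE 0.32, unadjusted p = 0.00611). Fkbp5, a co-chaperone gene also induced by glucocorticoids, had a log2 change of -0.42 (SE 0.22). Tsc22d3, another such target, had 35.1 ± 5.78 CPM in Old and 35.1 ± 0.374 CPM in Old+PM. Sgk1, a kinase gene responsive to aldosterone, had -0.25 (SE 0.28), and Per1, a clock gene also induced by glucocorticoids, -0.29 (SE 0.50). Of the 16 renin-angiotensin and corticoid genes tested, 0 passed, and 2 were higher and 1 lower at an unadjusted p under 0.05. Among all genes 2.65% were higher and 3.52% lower at that level. The list median was -0.01 (0.058 without Old 5, 0.045 without Old+PM 3 and 0.076 with the GC slope) beside -0.02 over all genes.

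**Figure D2:**
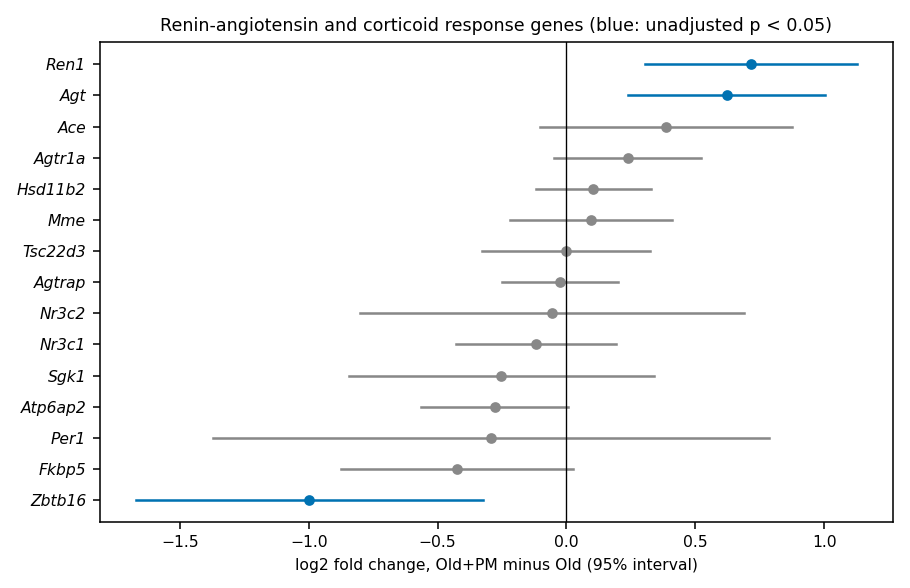
Log2 fold change of Old+PM minus Old with its 95% interval for 15 of the 16 renin-angiotensin and corticoid response genes, blue where the unadjusted p is under 0.05. The intervals of Ren1 (0.30 to 1.13) and Agt (0.24 to 1.003) lie above 0 and that of Zbtb16 (-1.67 to -0.33) below it, before adjustment over all genes.

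Nuclear genes of the respiratory chain had mostly positive fitted changes. Of 37 complex I genes, 31 had a positive value, where 53.8% of all genes had a negative one. None passed, 6 were higher and 0 lower at an unadjusted p under 0.05 (background 2.65% higher), and the list median was 0.12. Their summed level was 10833 to 11806 CPM in Old+PM, 8929 to 11300 CPM in Old and 12276 to 13419 CPM in Young, so that Old+PM and Old overlapped and both lay below Young. Ndufa8, an accessory subunit, had 298, 333, 289, 278 and 228 CPM in Old and 337, 371 and 336 CPM in Old+PM, with no overlap (log2 0.29, SE 0.11, unadjusted p = 0.02000). Ndufa3 (log2 0.24) and Ndufa9 (0.25), also accessory subunits, had no overlap either. The size of these values turned on Old 5, the lowest Old library for Ndufa8 and Ndufa9, and on Old 4. The complex I median was 0.08 without Old 5, with 3 genes higher at an unadjusted p under 0.05, and 0.19 without Old 4, with 13. Over all genes 393 of 14577 were higher at that level without Old 5 and 886 of 14601 without Old 4. With the GC slope as a covariate the complex I median was 0.075, with 6 higher and 1 lower. In that fit 748 of 14665 genes were higher and 622 lower at that level.

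Genes of complexes II to V gave a similar count, with 30 of 39 positive, 5 higher and 0 lower at an unadjusted p under 0.05 (background 2.65% higher and 3.52% lower), 0 past the adjusted threshold and a median of 0.11 (0.065 without Old 5). Cox4i1, a subunit of cytochrome c oxidase, had 935, 917, 807, 1058 and 743 CPM in Old and 1081, 1140 and 1168 CPM in Old+PM (log2 0.34, SE 0.13). Cyc1, the cytochrome c1 of complex III, had 203 ± 27.2 CPM in Old and 250.03 ± 9.69 CPM in Old+PM (log2 0.30, SE 0.11). Atp5d (log2 0.29), a subunit of ATP synthase, and Cox5a (0.23) were the others beside Atp5g1. The 17 genes of the TCA cycle had 0 members at an unadjusted p under 0.05 and a median of 0.10.

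Transcripts of the mitochondrial genome had mostly negative values. They made up 16.5% ± 1.53 of counts in Old+PM (n = 3, 15.0% to 18.1%) and 20.3% ± 1.69 in Old (n = 5, 18.5% to 22.02%), with no overlap. The difference was -3.77 percentage points (two-sided exact permutation p = 0.0357, where 0.0179 is the smallest the design allows, and adjusted p = 0.125 over 7 library measures). Without Old 1, Old 2, Old 5 or Old+PM 2 the exact permutation p was 0.0571, 0.0857, 0.0571 and 0.0952, where fewer labelings raise the smallest possible p to 0.0286 without an Old library and 0.0476 without an Old+PM library. Young libraries ran from 18.3% to 27.7% and Old+YM libraries from 17.8% to 24.6%. ND4, a complex I subunit, had 62582 ± 15697 CPM in Old and 40268 ± 5386 CPM in Old+PM (log2 -0.64, SE 0.37, edgeR adjusted p = 0.843). ND6, whose gene lies on the other strand from its neighbours, had 4.27 to 6.36 CPM in Old and 1.59 to 3.93 CPM in Old+PM (log2 -0.95, unadjusted p = 0.0159). ND1 had 0.04 and COX1, of complex IV, -0.14. Of the 8 such protein genes tested of 13 listed, 6 had a negative value, with a median of -0.31 and 0 past the threshold. ND4L, COX2, COX3, ATP6 and ATP8 were removed by the filter, with at most 7 counts in any Old or Old+PM library. The share thus weighs the mitochondrial genes very unequally, and how reads were assigned among them is not known. With the GC slope as a covariate the median was -0.071, with 5 of 8 negative.

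**Figure D3:**
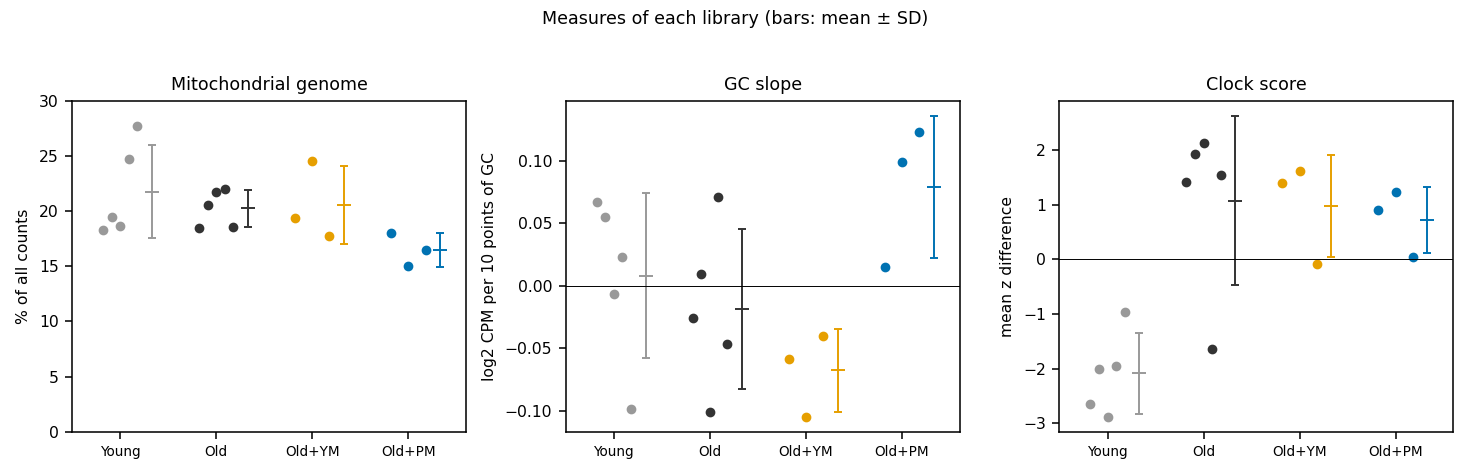
Share of counts from the mitochondrial genome (%), slope of expression on GC content (log2 CPM per 10 points) and clock score (mean z difference), one point per library with mean ± SD. The mitochondrial share of Old+PM (15.0% to 18.1%) lies below that of Old (18.5% to 22.02%), while GC slope and clock score overlap.

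Most tubule segment markers had narrow intervals. Of 43 proximal tubule genes, 38 had an interval within a 2-fold change, 0 passed, 3 were higher and 1 lower at an unadjusted p under 0.05, and the median was 0.10 (0.0082 without Old 5, and 0.014 without Old+PM 3, with 3 higher and 4 lower). All genes gave 2.65% higher and 3.52% lower at that level, and 282 higher and 479 lower of 15182 without Old+PM 3. Slc5a10, a sodium-coupled sugar transporter, had 118, 148, 124, 118 and 120.2 CPM in Old and 164, 166 and 165 CPM in Old+PM, with no overlap (log2 0.40, SE 0.13, unadjusted p = 0.00664). Slc6a18, an amino acid transporter, had a log2 change of 0.47 and Napsa, an aspartic protease, 0.45. Slc5a12, a lactate transporter, had -0.33 (SE 0.12). In bulk tissue, fewer cells of a type and less RNA per cell cannot be told apart.

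Lists for segments further along the nephron and for podocytes differed in sign. Thick ascending limb genes had a median of 0.14 over 12 genes (0.23 without Old 5 and 0.25 without Old+PM 3), with Sostdc1 at 0.33 (unadjusted p = 0.0391). Umod, which encodes the urinary protein uromodulin secreted by this segment, had 1293, 1304, 1213, 1434 and 1468 CPM in Old and 1572, 1727 and 1506 CPM in Old+PM. Its groups did not overlap, and its log2 change was 0.25 (SE 0.13, unadjusted p = 0.0683). The distal convoluted tubule (13 genes, median -0.07), principal cells (12 genes, 0.04), intercalated cells (14 genes, 0.03) and podocytes (15 genes, -0.08) held 2 genes at an unadjusted p under 0.05, the calcium pump gene Atp2b1 (-0.30) and the slit diaphragm scaffold gene Magi2 (-0.36). None of these lists had a member past the threshold, and over all genes 6.16% were at an unadjusted p under 0.05. The distal convoluted tubule median was -0.25 without Old+PM 3, with 11 of 13 genes negative, -0.19 with the GC slope as a covariate, and 0.02 without Old 4. The intercalated cell median was -0.15 with the GC slope, and the principal cell median was 0.12 with it and -0.04 without Old+PM 3.

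Sex-biased transcripts, which depend on androgens in the male mouse kidney, held no gene past the threshold between Old+PM and Old. Kap, the androgen-dependent kidney protein, had 17010, 19700, 15262, 17780 and 9909 CPM in Old and 19548, 16137 and 21613 CPM in Old+PM. The groups overlapped, with a log2 change of 0.26 (95% interval -0.09 to 0.61). Of 22 male-biased genes, 0 passed and 3 were higher at an unadjusted p under 0.05, with a median of 0.09, and 1 higher and 1 lower with a median of -0.02 without Old 5. At that level 2.65% of all genes were higher and 3.52% lower, and 393 higher and 401 lower of 14577 without Old 5. Without Old+PM 3 the male-biased median was 0.041. With all libraries the 3 higher genes were Cndp2, a dipeptidase (log2 0.46), Cyp7b1, an oxysterol hydroxylase (0.67), and Cyp2d9, a cytochrome P450 (0.45). Cndp2 had 144 CPM in Old 5 and 262 to 344 CPM in the other Old libraries, against 369 to 385 CPM in Old+PM. Of 15 female-biased genes, 1 was higher and 2 lower at an unadjusted p under 0.05, and the median was 0.15 (-0.050 with the GC slope as a covariate).

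All immune gene lists but that of neutrophils (2 genes tested, median 0.71) had negative medians in Old+PM, and for most of them the sign depended on Old 5. Macrophage and myeloid genes were negative in 25 of 28 cases, with 0 at an unadjusted p under 0.05 and a median of -0.34. Their summed level was 353 to 587 CPM in Old+PM and 259 to 1451 CPM in Old, where Old 5 was the highest. Without Old 5, 24 of 26 tested genes were positive (7276 of 14577 over all genes) and 9 were higher at an unadjusted p under 0.05 (393 over all genes). In that fit 0 of them passed and the list median was 0.44. The same turn of sign held for MHC class II genes (median -0.22 with and 0.54 without Old 5), MHC class I genes (-0.20 and 0.38), interferon response genes (-0.05 and 0.56), T and NK cell genes (-0.55 and 0.50) and complement genes (-0.11 and 0.13). Old 5 was not the sole library on which a sign rested, since without Old+PM 3 the medians of MHC class I (0.10), interferon response (0.13) and complement genes (0.08) were positive too. With the GC slope as a covariate those of MHC class I (0.18) and interferon response genes (0.035) were positive. Those of macrophage (-0.19), MHC class II (-0.13), T and NK cell (-0.17) and complement genes (-0.048) were negative in that fit. Ccl5, a chemoattractant made by activated T lymphocytes, had 122 CPM in Old 5, 5.94 to 10.1 CPM in the other Old libraries and 12.1, 21.6 and 3.93 CPM in Old+PM. Csf1r, the receptor for the macrophage growth factor, had 52.5 CPM in Old and 59.9 CPM in Old+PM on average (log2 0.19).

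B and plasma cell genes had a median of -0.97, with 15 of 18 negative and 4 lower at an unadjusted p under 0.05 (3.52% over all genes), and none passed. Without Old 5 the median was -0.60 and 1 of 16 was lower at that level (401 of 14577 over all genes). The list median was -1.46 without Old+PM 3 and -1.57 with the GC slope as a covariate. Igkc, the kappa light chain constant gene of antibodies, had 40.5, 95.4, 56.8, 49.9 and 37.6 CPM in Old and 30.7, 50.8 and 30.6 CPM in Old+PM (log2 -0.58, SE 0.44). Old+YM had 143 ± 80.1 CPM of Igkc (n = 3), and the difference of Old+PM minus Old+YM did not pass (log2 -1.94, edgeR adjusted p = 0.258). Iglc2 and Iglc3, lambda light chain regions of near-identical sequence, had 21.6 and 10.1 CPM in Old 5 and at most 1.303 CPM in any Old+PM library. This contrast is with a single Old library and does not describe the Old group. The counts of both genes are uncertain because reads could be split between them.

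Cell division genes had a negative value in 23 of 27 cases, with a median of -0.61 (-0.09 without Old 5 and -0.30 with the GC slope) and 0 past the threshold. Their summed level was 258 to 266 CPM in Old+PM (median 264) and 238 to 499 CPM in Old (median 267), where Old 5 was the highest. Tk1, the thymidine kinase of dividing cells, had 8.15, 11.7, 9.07, 9.44 and 15.8 CPM in Old and 4.84, 7.42 and 7.13 CPM in Old+PM. Its groups did not overlap (log2 -0.74, SE 0.24, unadjusted p = 0.00631). Cdc20, a mitotic activator of protein breakdown, had -0.66 (unadjusted p = 0.0463). Top2a, a topoisomerase of dividing cells, had 28.8 CPM in Old 5, 1.46 to 8.56 CPM in the other Old libraries and 4.003 to 5.83 CPM in Old+PM.

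**Figure D4:**
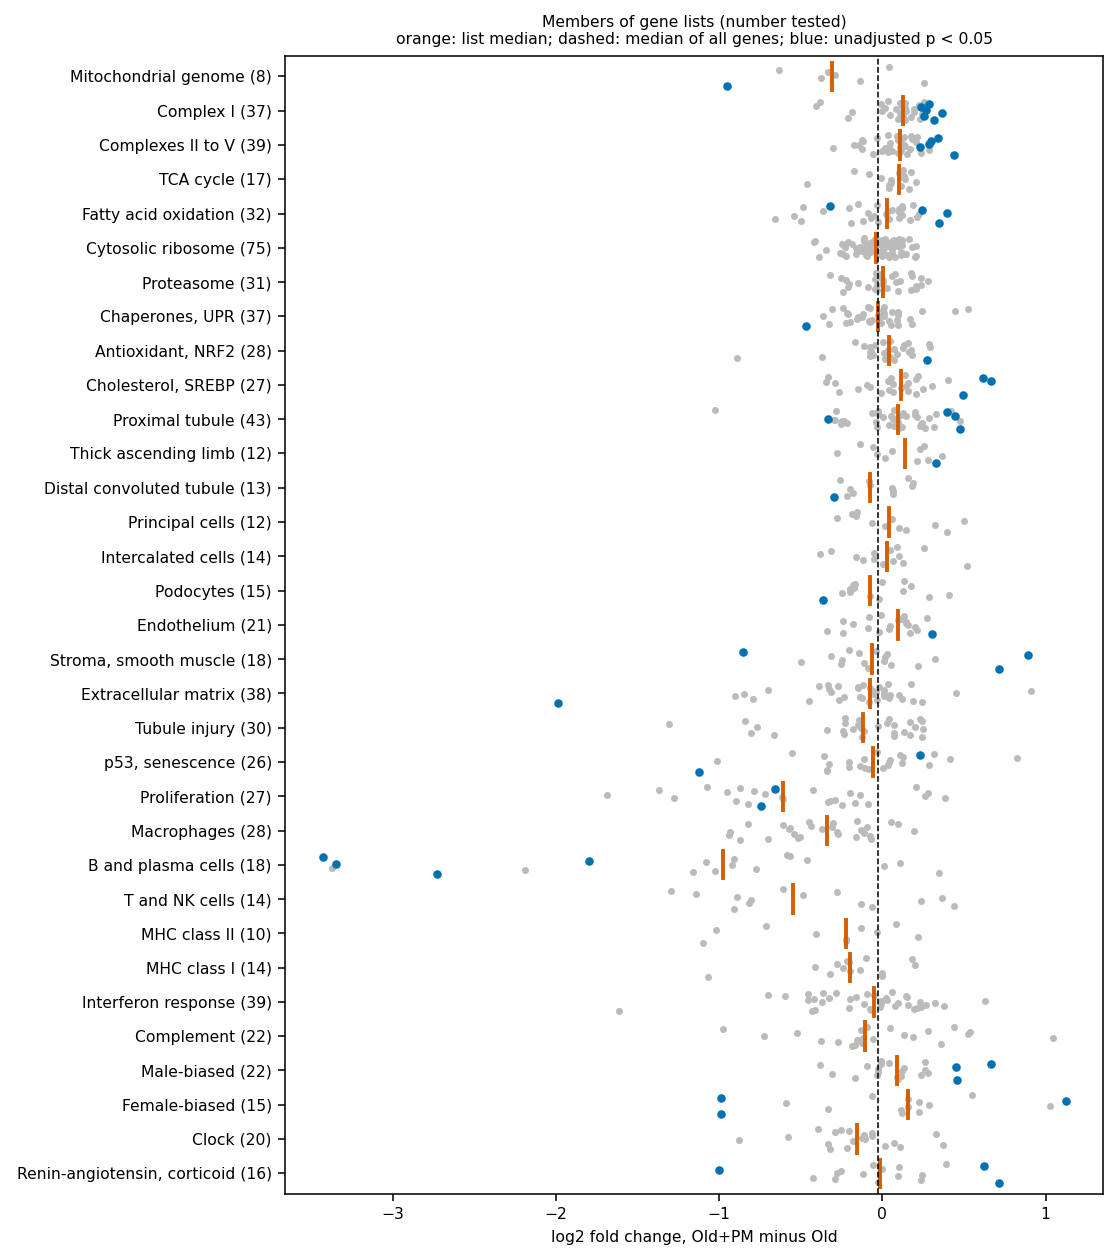
Log2 fold change of Old+PM minus Old for the tested members of 33 gene lists, with an orange bar at each list's median, blue points for an unadjusted p under 0.05 and a dashed line at the median of all genes (-0.02). Respiratory chain medians (0.12 and 0.11) lie to the right of that line and those of B and plasma cells (-0.97), cell division (-0.61) and T and NK cells (-0.55) to its left.

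Values of lipid synthesis genes depended on single libraries and on the GC slope. Of 27 cholesterol and SREBP genes, 3 were higher at an unadjusted p under 0.05, 0 passed and the median was 0.11. Without Old 4 the median was 0.35 and 10 were higher at that level, beside 886 of 14601 over all genes. Without Old 5 the median was 0.057. With the GC slope as a covariate it turned to -0.058, with 0 higher and 3 lower, beside 748 and 622 of 14665 over all genes. Nsdhl, a sterol synthesis enzyme, had 59.96 CPM in Old 4, 34.3 to 46.4 CPM in the other Old libraries and 59.2, 49.7 and 74.9 CPM in Old+PM (log2 0.49, SE 0.18). Insig1, a sensor that restrains sterol synthesis, had 0.62, and Scd1, a fatty acid desaturase, 0.67. Hmgcs1, the cytosolic HMG-CoA synthase, had 0.11. Old 4 also stood apart on the clock score, with -1.64 against 1.41 to 2.12 in the other Old libraries and 0.04 to 1.22 in Old+PM. Of 20 clock genes, 0 were at an unadjusted p under 0.05, and their median was -0.15. Without Old 4 the median was -0.23, with 1 higher and 2 lower at that level (886 and 603 of 14601 over all genes). Without Old+PM 3 the clock median was -0.05, and with the GC slope as a covariate it turned to 0.17.

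Genes of fatty acid, amino acid and iron handling gave a few members at an unadjusted p under 0.05. Of 32 fatty acid oxidation genes, 3 were higher and 1 lower at that level, with a median of 0.03. Of 36 amino acid and nitrogen genes, 3 were higher and 1 lower, with a median of 0.02. Over all genes 2.65% were higher and 3.52% lower. Crot, a peroxisomal carnitine acyltransferase, had 95.3 ± 9.78 CPM in Old and 121 ± 7.18 CPM in Old+PM (log2 0.35), with no overlap. Ppara, the receptor that drives fatty acid oxidation, had a log2 change of -0.32, and Ppargc1a, a coactivator of mitochondrial genes, -0.25. Dmgdh, a mitochondrial enzyme of choline breakdown, had 32.9 to 39.1 CPM in Old and 48.0 to 49.2 CPM in Old+PM (log2 0.38, unadjusted p = 0.00643). Fth1, the ferritin heavy chain, had 3074 to 3705 CPM in Old and 3791 to 4443 CPM in Old+PM (log2 0.27, unadjusted p = 0.0124). Kynu, an enzyme of tryptophan breakdown, had 13.2 ± 6.06 CPM in Old, 6.67 ± 1.20 CPM in Old+PM and 1.39 ± 0.568 CPM in Young (log2 -0.99, unadjusted p = 0.00755). G6pc, the glucose-6-phosphatase of gluconeogenesis, had -0.55, and Hsp90b1, a chaperone of the endoplasmic reticulum, -0.47. None of these genes passed (edgeR adjusted p = 0.790 for each).

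Of 25 preset kidney genes, listed with earlier results of these data known, Ren1 and Ppargc1a were at an unadjusted p under 0.05 and 0 passed. At that level were 6.16% of all genes. Ren1 is also among the genes of smallest p above, so its place here adds no support of its own. With the GC slope as a covariate Ren1 had 0.55 (unadjusted p = 0.0237) and Ppargc1a -0.054 (unadjusted p = 0.606). Markers of tubule injury did not pass and had wide intervals. The median of the tubule injury list was -0.12 with all libraries and 0.02 without Old 5. For extracellular matrix genes these medians were -0.08 and 0.13. Havcr1, which encodes the injury marker KIM-1, had 14.9 CPM in Old 5, 3.23 to 6.03 CPM in the other Old libraries and 4.84, 5.92 and 0.827 CPM in Old+PM (log2 -0.81, 95% interval -2.18 to 0.57). Lcn2, the injury marker NGAL, had 2.74 ± 1.68 CPM in Old and 3.22 ± 2.33 CPM in Old+PM. Cdkn1a, the cell cycle inhibitor p21, had -0.20 (SE 0.21), and Col1a1, a fibrillar collagen chain, 0.12 (SE 0.37). Kl, the anti-ageing hormone klotho, had 145 ± 25.6 CPM in Old, 131 ± 22.3 CPM in Old+PM and 212 ± 32.1 CPM in Old+YM.

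Other genes of this set had Old+PM levels much nearer to the Old than to the Young level. Ttr, the thyroxine carrier transthyretin, had 60.3 ± 20.4 CPM in Old, 75.5 ± 15.1 CPM in Old+PM and 479 ± 42.0 CPM in Young. Wdfy1, an endosomal adaptor, had 11.9 ± 2.95, 11.2 ± 0.826 and 55.03 ± 7.07 CPM in these groups. Odc1, the first enzyme of polyamine synthesis, had 67.3 ± 16.05, 81.6 ± 10.8 and 246 ± 31.6 CPM. The transport genes Slc34a1 (phosphate, log2 0.07), Slc5a2 (glucose, 0.10), Slc12a3 (sodium chloride, -0.08) and Aqp2 (water, -0.16) had intervals within a 2-fold change.

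**Figure D5:**
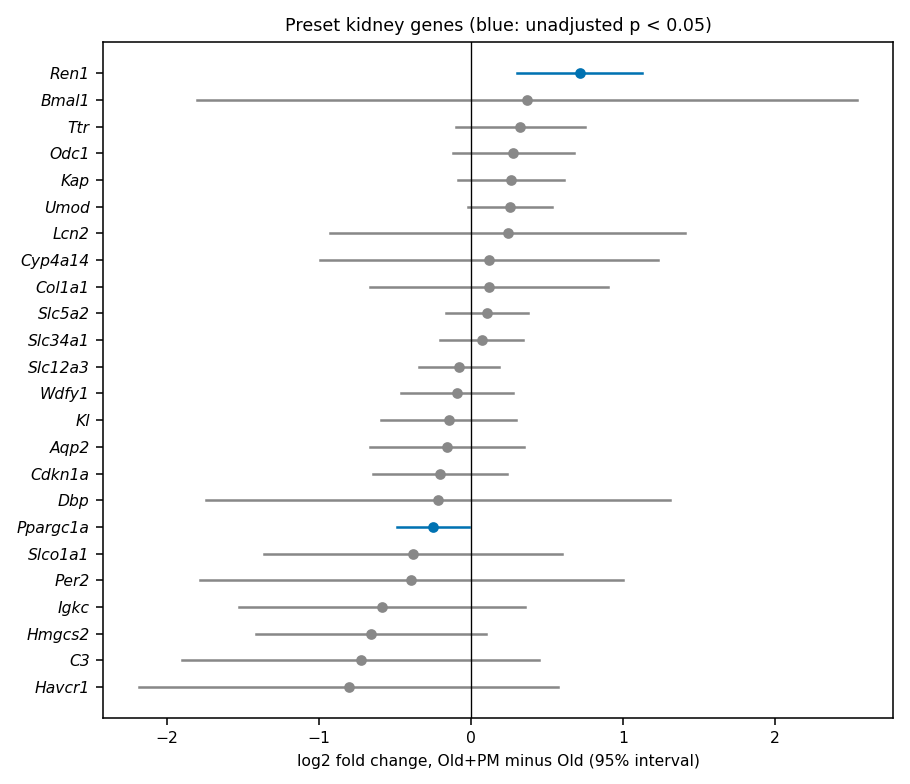
Log2 fold change of Old+PM minus Old with its 95% interval for 24 of the 25 kidney genes, blue where the unadjusted p is under 0.05. Transporter genes such as Slc5a2 have short intervals near 0, while others, such as those of Bmal1, Dbp, Per2, Havcr1 and Lcn2, reach past a 2-fold change.

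The formulas were also compared directly, PM against YM at the same stated dose and schedule. Of 14665 genes, 0 (0%) passed in edgeR, the smallest adjusted p was 0.0593, and 1878 (12.8%) were at an unadjusted p under 0.05. The 3 genes (0.0205%) that passed in Old+YM against Old, where 9.47% were at an unadjusted p under 0.05, named here after their values were seen, were Arhgef10l, an exchange factor for small GTPases, Rps6, a protein of the small ribosomal subunit with many pseudogenes, and Usp19, a deubiquitinase. Usp19 had 31.4 ± 3.44 CPM in Old, 30.7 ± 3.54 CPM in Old+PM and 66.4 ± 4.63 CPM in Old+YM. Its log2 difference of Old+PM minus Old+YM was -1.11 (edgeR adjusted p = 0.0593). Arhgef10l and Rps6 had log2 changes of 0.16 and 0.03 in Old+PM, and differences from Old+YM of -1.15 (edgeR adjusted p = 0.226) and -1.06 (edgeR adjusted p = 0.145). Both comparisons with Old share the same Old libraries.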

How the data were processed

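QuantSeq libraries of mouse kidney, 16 in all, were used (Young 5, Old 5, Old+YM 3, Old+PM 3), grouped by GEO's labels. The deposited values are raw counts for each gene symbol, which the authors made with Bowtie2, bedtools and the mm10 build, per the submitters' processing notes. The sources used here do not give tool versions, the annotation, whether strand was used, or how multiply aligned reads were handled. Totals ran from 8223008 to 10914515 counts per library, and their number limits the precision of low genes.

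Of 40879 symbols, 24634 had a count. The filter filterByExpr (minimum count 10 and a smallest group of 3 libraries) kept 14665 and removed 26214. One quasi-likelihood fit with robust dispersions over all 16 libraries was made in edgeR 4.0.16 (R 4.3.3), with TMM scaling and the two-sided contrast Old+PM minus Old, adjusted by Benjamini-Hochberg over all genes at 0.05. It was tested on simulated counts. SE is the log2 change over the square root of F. Shares per library were compared by exact permutation over 56 labelings. Coordinates and the GC content of the last 500 bases come from GENCODE M21 (GRCm38). The clock score is the mean z of genes high at one phase minus that of genes high at the other.

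Named genes are the 8 of smallest unadjusted p in each direction with at least 5 CPM, which applied because none passed, and 25 preset kidney genes. A few items are not reported here, 1 of them a preset gene. Other genes are members of the gene lists and were chosen after their values were seen. The comparison and the lists were chosen with earlier results of these data known. Alternatives were DESeq2 1.42.0, limma-voom (limma 3.58.1), other scalings and filters, covariates, a replicate block and leaving out libraries.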

Additional observations from a re-analysis of the deposited data

Results flagged for a closer look

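In 4 of 40 groups of 5 libraries examined, Old 5 lay far from the other Old libraries, where chance flags about 1 in 20 groups. Havcr1, the injury marker KIM-1, had 14.9 CPM in Old 5 and 3.23 to 6.03 CPM in the others. C3, the central complement protein, had 105 CPM against 18.5 to 33.2 CPM. Col1a1, a collagen chain, had 34.2 CPM against 8.96 to 14.8 CPM. Slc5a2, the glucose transporter SGLT2 of the early proximal tubule, was low in Old 5, with 282 CPM against 408 to 445 CPM. The 3 Old+PM libraries had 19.1 to 33.9 CPM of C3, 13.6 to 20.9 CPM of Col1a1 and 398 to 480.3 CPM of Slc5a2. With and without Old 5 the log2 change of C3 was -0.72 and 0.03.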

How the results depend on the processing

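The count of genes past the threshold was 0 under all 20 alternatives, the smallest adjusted p among them being 0.131 (DESeq2), and genes at an unadjusted p under 0.05 numbered 589 (Old and Old+PM libraries only) to 1489 (without Old 4). The count was 1370 with the GC slope and 661 without Old+PM 2. Of 780 values of 39 named genes, 749 kept their direction, and 25 genes, among them all 16 of smallest p, kept it in every alternative. The others turned as follows, with no call in any of them, and the cause was not tested. With the GC slope as a covariate, chosen after seeing the data, the log2 change was -0.34 for Cyp4a14, 0.31 for Kl, -0.071 for Slc34a1, 1.05 for Dbp, 0.48 for Per2, -0.22 for Bmal1 and 0.20 for Wdfy1. With the clock score it was 0.45 for Dbp and 0.10 for Per2, and with limma-voom 0.064 for Dbp. Without Old 4 and Old 5 together, which stood apart in earlier results of these data, it was 0.24 for C3, -0.0082 for Slc34a1, -0.0098 for Slc5a2, 0.16 for Aqp2 and 0.18 for Cdkn1a, and without Old 4 and Old+PM 3 -0.012 for Slc34a1. With single libraries left out in turn, the log2 change ran from -0.155 to 0.618 for Cyp4a14, -0.361 to 0.693 for Lcn2, -1.03 to 0.032 for C3, -0.033 to 0.137 for Slc34a1, -0.199 to 0.025 for Slc12a3, -0.241 to 0.089 for Aqp2, -0.027 to 0.586 for Col1a1, -0.495 to 0.167 for Dbp, -0.156 to 1.65 for Bmal1 and -0.185 to 0.01003 for Wdfy1.

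The difference in mitochondrial share kept its sign, from -4.55 to -3.02 percentage points, when any single library was left out, and the exact permutation p was above 0.05 without Old 1, Old 2, Old 5 or Old+PM 2. With a library left out 35 or 21 labelings remain of 56, so a larger p there does not by itself show a smaller difference.

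Replicate numbers are shared by the groups, but same-numbered libraries did not deviate together (r = 0.33, -0.10 and -0.23), so the numbers were not taken as pairs. With the replicate block 0 genes passed and 713 were at an unadjusted p under 0.05, and in that paired fit the log2 change was 0.012 for Aqp2 and 0.034 for Cdkn1a.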

Other observations

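Genes with at least 5 CPM and a fitted change of 2-fold or more numbered 21, with 4 higher and 17 lower in Old+PM, and none passed in edgeR. Several rested on 1 library. Pm20d1, an enzyme that makes N-acyl amino acids, had 164 CPM in Old+PM 2, 38.8 and 45.3 CPM in the other Old+PM libraries and 34.3 to 43.3 CPM in Old. Cxcl9, a chemokine induced by interferon gamma, had 61.5 CPM in Old 5 and 0.930 to 6.98 CPM in the other libraries of both groups. Haemoglobin genes had wide ranges in both groups, with Hbb-bs at 69.3 to 976 CPM in Old and 35.5 to 286 CPM in Old+PM, highest in Old 1 and Old 3. Rnu11, the U11 RNA of the minor spliceosome, had 6.78 to 9.15 CPM in Old, 2.17 to 4.95 CPM in Old+PM and 2.01 ± 0.505 CPM in Old+YM (n = 3). Its log2 change in Old+PM was -1.29 (SE 0.42, unadjusted p = 0.00624), and the groups did not overlap. QuantSeq reads polyadenylated transcripts, and whether these counts stand for the level of U11 RNA was not tested. S100a8, a calgranulin of neutrophils, had 0.559, 8.22 and 17.0 CPM in Old+PM and 0.860 to 7.98 CPM in Old.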
